A study of Rattus norvegicus with 10 samples.

Results

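Very long autosomal genes were examined in RNA-seq counts from the cerebral cortex of 10 fetal rats. A gene counted as very long when its outermost annotated exon ends, on chromosomes 1 to 20, lay at least 250000 bases apart. This left 484 of 25183 autosomal features (1.92%), by a rule on span alone. The animals were Sprague Dawley rats at embryonic day 21, and the right cerebral cortex was taken 24 h after the dam had received treatment. In the oxytocin group, 5 fetuses came from 5 dams given 100 mcg per kg of oxytocin intravenously, and in the saline group 5 fetuses came from 5 other dams given the same volume of saline. Oxytocin makes the uterus contract, and the comparison asked which cortical transcripts of the fetus differ after it was given to the dam. Each library is 1 fetus, only RNA of high integrity was used, transcripts were selected with oligo-dT, and fetal sex is not among the labels.

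A very long gene is almost all intron. RNA polymerase has to copy the whole length before a single mature messenger is complete, which makes such genes slow to respond and dependent on topoisomerases, the enzymes that relieve the twisting of DNA ahead of the polymerase. In the mammalian brain, long genes as a class are known to include many that encode neuronal adhesion molecules, synaptic scaffold proteins, ion channel subunits and axon guidance receptors. The deposited identifiers were not paired with gene symbols here, so none of these roles is assigned to a gene below. Genes are given by position on the rat build Rnor_5.0, and the cortical origin of the tissue was not checked against marker genes.

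Total counts per library ran from 18555172 to 30404127. Between 456 and 461 of the 484 very long genes had at least 1 count in any given library. Of autosomal counts, they took 3.49, 3.55, 3.55, 3.61 and 3.61% in oxytocin libraries 1 to 5 (mean 3.56% ± 0.051, SD, n = 5). Saline libraries 1 to 5 gave 3.44, 3.35, 3.59, 3.61 and 3.54% (mean 3.51% ± 0.11, SD, n = 5), so the groups overlapped. Counting error, the only error covered by the Wilson 95% interval, was within 0.0089 percentage points for any library's share. Because the RNA came from whole tissue, fewer cells of a type and less RNA per cell cannot be told apart in anything that follows.

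Chosen by span, these genes were mostly intron, but their number of exon blocks and their exonic length varied widely. Their span had a median of 349122 bases and reached 1007634, and 91 of them spanned at least 500000. Exons made up a median of 0.86% of the span, against 19.3% in the other autosomal features, a contrast largely set by the rule on span. The median very long gene had 16 separate exon blocks and 3117 exonic bases, where the median of the others was 5 blocks and 1391 bases. One intron can hold much of the length: the longest gap between exons had a median of 132370 bases and exceeded 250000 in 41 genes. Strand was even, with 239 genes on the plus strand and 245 on the minus strand. Chromosome 1 held the most, with 60, while the share of a chromosome's features that were very long was highest on chromosome 13 (2.95%) and lowest on chromosome 20 (0.94%).

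Other genes often lay inside. In all, 196 of the 484 enclosed at least 1 other autosomal feature, 380 enclosures together. The extreme case was a model of only 4 exon blocks on chromosome 1 (196394580 to 197295841) with 16 features inside its span. Exonic overlap was rare: 4 very long genes (0.83%) shared exonic bases with another feature, against 4.11% of the others, and the counts of these 4 are uncertain where a read could belong to either. At the limit of the rule, the shortest gene inside it spanned 250117 bases (chromosome 2, 18553028 to 18803145, mean 7.84 RPKM), and the longest feature outside it spanned 249944 bases (chromosome 7, 4916492 to 5166436, 0 counts). The next on either side were a gene of 250443 bases on chromosome 1 at 0.0087 RPKM and one of 249856 bases on chromosome 2 at 17.1 RPKM.

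Most of these genes were expressed in the fetal cortex. The low-count filter of edgeR, which keeps features with enough counts in at least 1 group's worth of libraries, passed 437 of 484 (90.3%), compared with 13458 of the 24699 other autosomal features (54.5%). A mean level of at least 10 CPM (a count scaled per megaread of library total) was reached by 349 of them (72.1%) and by 36.8% of the others. The contrast was smaller at matched exonic length: among other features of like exonic length, 80.0% passed the filter, and 283 of the 484 (58.5%) lay above the median CPM of such features. By level per length, in CPM per kilobase of exon (RPKM), the very long genes that passed had a median of 11.7, beside 11.5 in the others that passed. At the low end, 19 very long genes had 0 counts in every library, which over the summed counts allows up to 0.0141 CPM.

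**Figure D1:**
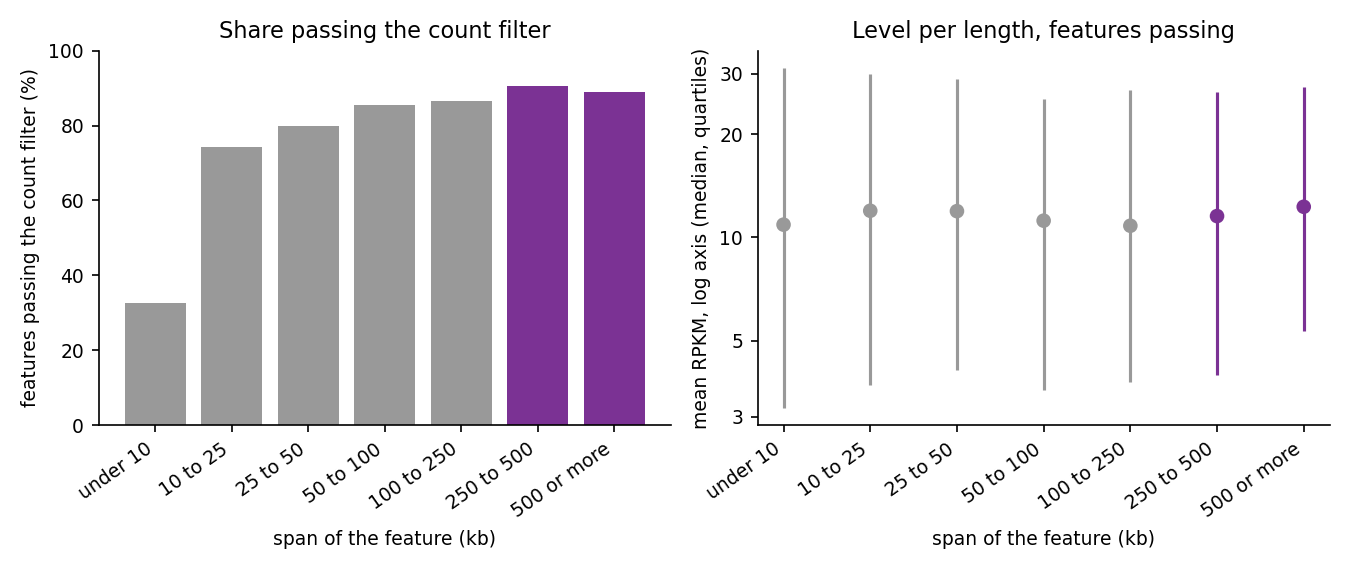
Share of autosomal features that pass the count filter (left, in %) and mean RPKM of those that pass (right, log axis, median with quartiles) for 7 classes of span in kb. The 2 longest classes, in purple, are the very long genes, of which 90.6% and 89.0% passed, while the medians of RPKM lay between 10.8 and 12.3 in every class.

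The bars rise from 32.7% of features under 10000 bases to the 2 longest classes, whereas the level per length of the features that pass barely moves. The filter acts on counts, and without it the median differed by class. It was 0.032 RPKM over all features under 10000 bases and 10.9 RPKM over all of 500000 or more. Within the very long genes, span itself had little to do with level (Spearman rho = 0.097 between span and mean log2 CPM across 437 genes, which share the same 10 libraries and so are not independent). Exonic length was more closely related to CPM (rho = 0.38 over the same genes). The number of exon blocks ran the same way: 16 of the 21 genes with 2 to 5 blocks passed the filter, against 39 of the 41 with 41 or more. Median exonic length was 939 bases in the first of these classes and 8732 in the second, so block number and length were not separated. Per length, the group with 21 to 40 blocks stood highest, at a median of 12.1 RPKM over its 146 genes, and the group with 41 or more lowest, at 5.35 RPKM. The 47 genes that did not pass the filter had a median of 2062 exonic bases in 10 blocks but a median span of 350202 bases, close to that of the 437 that passed (348865).

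The 8 genes highest per length lay between 104 and 211 RPKM, where 75% of the 484 lay under 25.1 RPKM. First among them was a gene on chromosome 7 (136173239 to 136494641, minus strand, 21 exon blocks over 321402 bases) at 214 ± 7.1 RPKM in oxytocin fetuses and 208 ± 13 RPKM in saline fetuses (SD, n = 5 per group). In CPM its oxytocin libraries 1 to 5 read 654, 669, 669, 687 and 713, and its saline libraries 631, 690, 694, 598 and 673. The ranges overlapped, and the 10 fetuses differed little. Next came a plus-strand gene on chromosome 17 (76914823 to 77312284) at 157 ± 16 and 157 ± 20 RPKM. A minus-strand gene on chromosome 13 (91029200 to 91306878) followed at 150 ± 16 and 152 ± 18 RPKM. Its 9 exon blocks add up to 1293 bases, and a single gap between them measures 214344.

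Below these 3 the order was close. Genes on chromosome 8 (50460915 to 50788814), chromosome 13 (99533234 to 99800302) and chromosome 8 again (30074875 to 30510958) averaged 114, 113 and 111 RPKM over the 10 libraries. A pair on chromosome 2 closed the list, at 105 RPKM for 103069802 to 103662662 and 104 RPKM for 260462929 to 260735288. The first 3 of these 5 differed from one another by less than the SD within a group of any of them, as did the pair on chromosome 2, while the step from 111 to 105 RPKM was larger than 3 of the 4 SDs of the genes beside it. Their log2 fold changes for oxytocin against saline ran from -0.0029 to 0.073 over all 8, with unadjusted p of at least 0.141 in edgeR's quasi-likelihood test, and 4 of the 8 changed sign when 1 library was left out.

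The longest genes were not the highest. The very longest, on chromosome 9 (68228908 to 69236542, plus strand, 24 exon blocks over 1007634 bases), averaged 1.58 ± 0.19 RPKM in oxytocin fetuses and 1.82 ± 0.21 RPKM in saline fetuses (SD, n = 5 per group). In CPM, oxytocin libraries 1 to 5 read 6.41, 5.63, 4.95, 6.41 and 5.13 and saline libraries 5.89, 7.17, 5.93, 7.54 and 6.36, with overlapping groups and 96 to 195 counts per library. The next longest were genes of 965393 bases on chromosome 3 (30668625 to 31634018) at 1.26 RPKM and of 932502 bases on chromosome 1 (49909479 to 50841981) at 3.75 RPKM, each a mean over the 10 libraries. By contrast, a minus-strand gene of 931132 bases on chromosome 4 (172588005 to 173519137), stood at 90.7 RPKM. Genes of nearly equal span differed widely in level.

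No very long gene passed an adjusted p of 0.05 after maternal oxytocin. The count was 0 of 437 in edgeR's quasi-likelihood test, where 0% of all 14400 tested features passed, and also 0 in limma voom, where 0% of features passed as well. DESeq2 called 0 of the 116 to which it gave an adjusted p, beside 0.349% of the 2868 features with one. Unadjusted p values under 0.05 were found for 15 of the 437 (3.43%), close to the 3.57% of all tested features, and for 17 in limma voom (3.89%, against 3.74%). In DESeq2 they were found for 16 of 465 (3.44%), against 2.46% of all features with a p. Leaving out saline replicate 2 gave 4 (0.92%, against 3.12% of all tested features) and leaving out saline replicate 5 gave 33 (7.55%, against 5.81%). Without oxytocin replicates 4 and 5 the counts were 6 (1.37%, against 2.90%) and 9 (2.06%, against 3.07%), and without oxytocin replicate 3 it was 10 (2.29%, against 2.91%). Fold changes were small: 323 of the 437 (73.9%) lay within 0.1 of 0 on the log2 scale, against 72.5% of all tested features. The median standard error was 0.081, beside 0.080 for all tested features.

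The direction of these small differences was uneven. Higher values after oxytocin were seen in 270 of 437 very long genes (61.8%), where 48.2% of all tested features were higher, and the median log2 fold change was 0.019 beside -0.0031 for all tested features. With scaling by library size alone the median turned to -0.0068, in a table whose overall median was -0.029, and 200 of the 437 were higher (45.8%, against 34.8% of all tested features). Of the 15 with an unadjusted p under 0.05, 14 were higher and 1 was lower, where 1.93% and 1.64% of all tested features stood in those classes. In limma voom 16 were higher and 1 lower (2.10% and 1.64% of all tested features), and 286 of 437 had a fold change above 0 (65.4%, against 49.6%). DESeq2 gave 16 higher and 0 lower (1.44% and 1.02% of all features) and 283 of 465 above 0 (60.9%, against 48.3%). With library size alone, 7 were higher and 1 lower (1.16% and 3.42% of all tested features). Set against other autosomal features of similar mean CPM, in bins of 0.5 on the log2 scale, the very long genes were higher by a median of 0.026, with 287 of 437 (65.7%) above their bin's median. These are descriptions of a set of genes in the same 10 libraries, with no test of the set. Mitochondrial transcripts also differed between the groups, at 6.44% ± 0.15 of counts in oxytocin libraries and 5.72% ± 0.33 in saline libraries (SD, n = 5 each) without overlap, and their part in the shift was not tested.

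**Figure D2:**
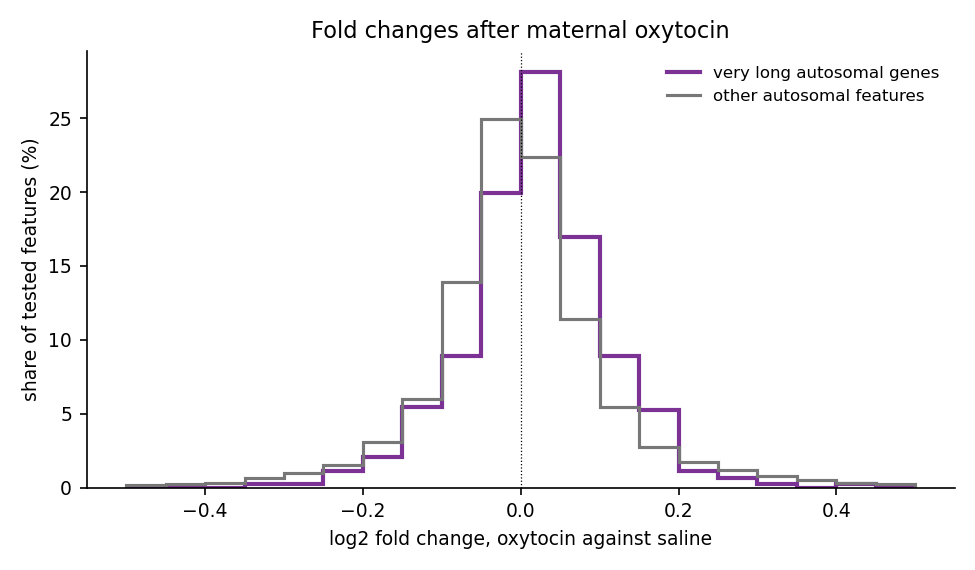
Distribution of log2 fold changes, oxytocin against saline, for 437 very long genes (purple) and 13458 other autosomal features (grey), as the share of each set in steps of 0.05. The purple outline sits slightly to the right, with medians of 0.019 and -0.0045; 2 very long genes and 147 others lie beyond the axis.

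The shift was not seen without 1 fetus. Without saline replicate 2 the median over the very long genes was -0.0011 and 215 of 437 were higher (49.2%, against 48.0% of all tested features). The difference from features of similar mean CPM then fell to 0.0040, with 53.3% of genes above their bin's median, and 4 genes higher and 0 lower had an unadjusted p under 0.05 (1.76% and 1.35% of all tested features). Leaving out saline replicate 4 moved it the other way, to 0.051 with 75.3% above. The difference in share of counts behaved likewise: 0.054 percentage points with all libraries, 0.014 without saline replicate 2 and 0.080 without saline replicate 4. As a share of all assigned counts, mitochondrial ones included, it was 0.024 percentage points.

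The values of the single libraries spread more within saline than within oxytocin. Relative to features of similar mean CPM, the very long genes of oxytocin libraries 1 to 5 deviated by a median of 0.017, -0.0094, 0.013, 0.041 and 0.018 on the log2 scale. Those of saline libraries 1 to 5 deviated by -0.014, -0.11, -0.0035, 0.050 and -0.0030. Saline replicate 2 was thus the lowest and saline replicate 4 the highest of all 10, and the groups overlapped. In saline replicate 2 only 23.6% of the very long genes lay above their bin's median, while in saline replicate 4 the figure was 63.8% and in oxytocin replicate 4 it was 67.0%. Among the 5 saline libraries, saline replicate 2 was the lowest for 156 of the 437 genes (35.7%), compared with 17.7% of the other autosomal features. Saline replicate 4 was the highest for 151 (34.6%), compared with 18.6% of the others.

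**Figure D3:**
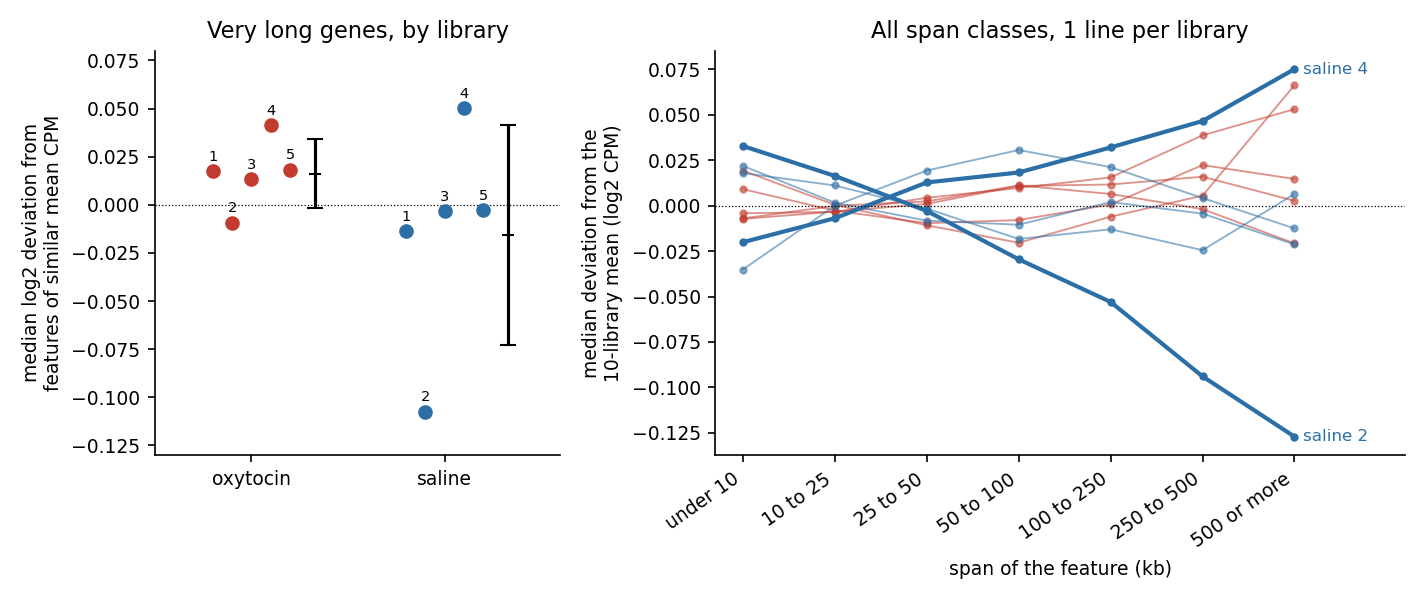
Left: median log2 deviation of the very long genes from features of similar mean CPM, 1 numbered point per library, with group mean and SD in black (n = 5 each). Right: median deviation from the 10-library mean of log2 CPM for 7 classes of span in kb, 1 line per library (red oxytocin, blue saline); saline replicate 2 descends from 0.033 to -0.13 and saline replicate 4 climbs from -0.020 to 0.075.

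Over the 7 classes of span, the medians of saline replicates 2 and 4 were ordered by length, and so were those of oxytocin replicate 4. In saline replicate 2 the median deviation from the 10-library mean was 0.033 for features under 10000 bases, -0.030 for 50000 to 100000, -0.053 for 100000 to 250000, -0.094 for 250000 to 500000 and -0.13 for 500000 or more. The corresponding values in saline replicate 4 were -0.020, 0.018, 0.032, 0.047 and 0.075. Among the 437 very long genes alone, the deviation from features of similar mean CPM hardly followed span (Spearman rho = -0.070 in saline replicate 2 and 0.11 in saline replicate 4, genes that share each library). In oxytocin replicate 4 the median rose with each class, from -0.0042 under 10000 bases to 0.039 for 250000 to 500000. Oxytocin libraries differed among themselves too: at 500000 bases or more, oxytocin replicates 1 and 4 deviated by 0.066 and 0.053 and oxytocin replicate 2 by -0.021. Matching on exonic length as well as CPM, which placed 409 of the 437 genes, left saline replicate 2 at -0.098 and saline replicate 4 at 0.042. The TMM scaling factor of saline replicate 2 was 1.02, the highest of the 10 (lowest 0.983), and its depth of 20776414 counts was within the range of the others. The part of scaling in this pattern was not tested.

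Among genes higher after oxytocin, the smallest p belonged to ENSRNOG00000016483 (chromosome 16, 84026826 to 84387681, minus strand, 34 exon blocks). Its oxytocin libraries 1 to 5 read 217, 228, 227, 245 and 233 CPM and its saline libraries 215, 184, 215, 201 and 222 CPM. Only oxytocin replicate 1 fell within the saline range. It was higher by 0.18 ± 0.057 (SE) on the log2 scale (edgeR's quasi-likelihood test, unadjusted p = 0.00829, adjusted p = 0.9997). Next was ENSRNOG00000019358 (chromosome 1, 42667185 to 42931332, plus strand), a weakly expressed gene with 20 to 64 counts per library. It read 2.10, 1.57, 2.16, 1.58 and 2.30 CPM after oxytocin and 1.47, 0.963, 1.11, 1.07 and 1.99 CPM after saline, so that saline replicate 5 overlapped the oxytocin range. The log2 fold change of 0.58 ± 0.22 (SE) was the largest of any very long gene tested (unadjusted p = 0.0182 and adjusted p = 0.9997, edgeR).

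The other two were genes on chromosome 4 (50109970 to 50640382) and chromosome 1 (277412523 to 277912038). They stood at 31.0 ± 1.8 against 28.3 ± 1.8 CPM and at 54.8 ± 4.4 against 49.3 ± 3.8 CPM (SD, n = 5 each, oxytocin first), with overlapping groups. By edgeR's quasi-likelihood test p was 0.0192 and 0.0210, and 0.9997 for both after adjustment.

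On the lower side, ENSRNOG00000018931 (chromosome 9, 93387701 to 93886547, plus strand, 20 exon blocks) had the smallest p. Oxytocin libraries 1 to 5 read 41.5, 43.0, 41.6, 42.8 and 42.0 CPM, and saline libraries 44.8, 48.5, 48.4, 43.4 and 45.2 CPM. Every oxytocin value lay below every saline value in CPM, which was true of no other of the 437 genes in either direction (0.229%, against 0.896% of all tested features). After TMM scaling, which corrects library totals for composition, its groups overlapped. On that scale the 1 very long gene without overlap was another, on chromosome 1 (113167703 to 113438056), higher after oxytocin by 0.19 on the log2 scale with an unadjusted p of 0.0554 by edgeR, while 0.701% of all tested features had groups without overlap. That gene is given because it makes up this count and was picked after its values were seen. For ENSRNOG00000018931 the difference on the log2 scale was -0.10 ± 0.044 (SE), for which edgeR's quasi-likelihood test gave an unadjusted p = 0.0385 and adjusted p = 0.9997. Next was ENSRNOG00000006553 (chromosome 5, 106424110 to 106751748, minus strand), at 4.08, 2.37, 5.40, 4.83 and 3.04 CPM after oxytocin and 5.28, 4.33, 5.02, 10.9 and 3.18 CPM after saline. Saline replicate 4 stood far above the rest. Its log2 fold change of -0.52 ± 0.31 (SE) was the most negative of the class, and p was 0.115 before adjustment in the same test. Without saline replicate 4 its log2 fold change shrank to -0.15.

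The other two on this side, on chromosome 15 (87005567 to 87327709) and chromosome 12 (34713829 to 35029422), had unadjusted p of 0.120 and 0.129 in edgeR's quasi-likelihood test. They stood at 20.1 ± 1.1 against 22.0 ± 1.3 CPM and at 26.0 ± 2.8 against 31.0 ± 7.7 CPM (SD, n = 5 each, oxytocin first). In both pairs the groups overlapped. For the gene on chromosome 12 the log2 fold change went from -0.22 with all libraries to -0.056 without saline replicate 4.

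By the median, very long genes varied more between fetuses than other features of similar level. Spread was taken as the SD of TMM-scaled log2 CPM within each group, averaged over both groups. Among the very long genes it was larger at low level (Spearman rho = -0.59 with level across the 437 genes, which share the 10 libraries). Its median was 0.134 in the very long genes and 0.123 in the other autosomal features that passed the filter. At similar mean CPM the very long genes exceeded the others by a median of 0.025, and 300 of 437 (68.6%) lay above their bin's median. Counting error alone would give a median SD of 0.052 at their depth. The excess was 0.012 within the oxytocin group (61.6% of genes above) and 0.034 within the saline group (67.0% above); the difference between the groups was not tested. Averaged over both groups, the excess of 0.025 became 0.018 without saline replicate 2.

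**Figure D4:**
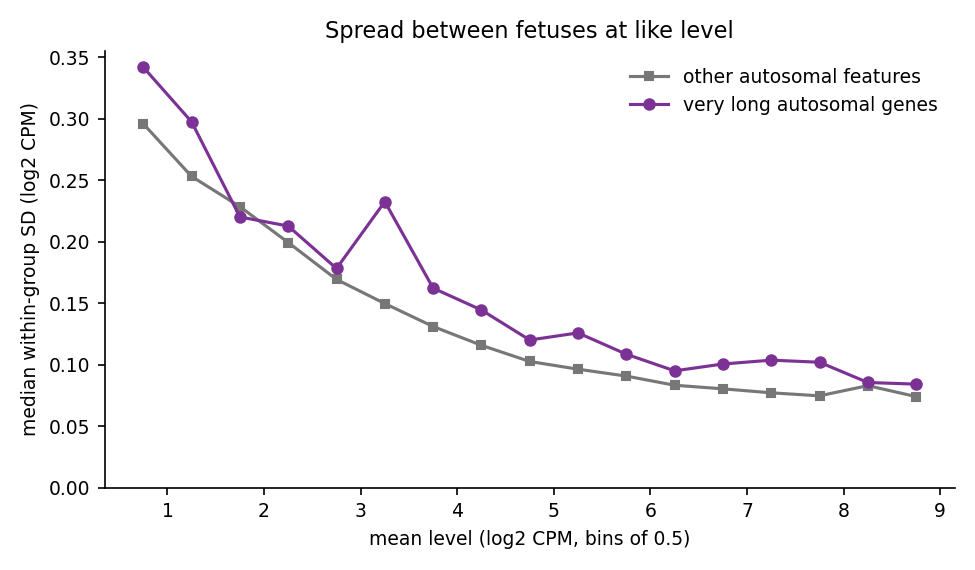
Median within-group SD of log2 CPM against mean level, in bins of 0.5 log2 CPM that hold at least 5 very long genes, for very long genes (purple) and other autosomal features (grey). The purple line is above the grey one in each of the 10 bins with at least 20 very long genes, most in the bin from 3.0 to 3.5 log2 CPM, where the medians are 0.233 and 0.150.

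In that bin 33 very long genes were compared with 848 other features. Among the 10 bins the gap was narrowest from 6.0 to 6.5 log2 CPM, at 0.095 against 0.083 with 34 and 976 features. In bins with fewer very long genes the order varied: from 1.5 to 2.0 log2 CPM, with 16 of them, their median was 0.220 against 0.228, and from 9.0 to 9.5, with 2 of them, it was 0.074 against 0.077. Among genes with a mean of at least 5 CPM, the highest library exceeded the lowest by a median of 1.32-fold in 392 very long genes and 1.27-fold in 10470 others. More than 2-fold differences between fetuses were uncommon in both sets, at 12 very long genes (3.06%) and 2.87% of the others. Span had no visible relation to spread within the class (Spearman rho = 0.033 across the 437 genes).

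The most variable genes had the same fetuses high. A gene on chromosome 10 (80633889 to 81150503, plus strand, 10 exon blocks) had the largest spread, with an SD of 0.63. It read 24.3, 10.4, 16.5, 14.3 and 10.3 CPM in oxytocin libraries 1 to 5 and 25.3, 13.7, 9.02, 30.5 and 11.3 CPM in saline libraries 1 to 5. Saline replicates 4 and 1 and oxytocin replicate 1 were the highest. Another, on chromosome 6 (32580734 to 33082961, plus strand), read 11.6, 6.11, 7.47, 6.06 and 6.30 CPM after oxytocin and 11.9, 6.02, 5.42, 18.0 and 6.25 CPM after saline. A gene on chromosome 8 (72463339 to 72889842, plus strand) read 12.0, 6.23, 9.18, 9.57 and 7.69 CPM after oxytocin and 11.7, 7.22, 5.67, 14.3 and 8.41 CPM after saline. The same 3 libraries led in all 3 genes, across the treatment groups, and the lowest unadjusted p of the 3 was 0.364 in edgeR's quasi-likelihood test. Their log2 fold changes of -0.21, -0.30 and -0.052 turned to 0.071, 0.063 and 0.15 without saline replicate 4.

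**Figure D5:**
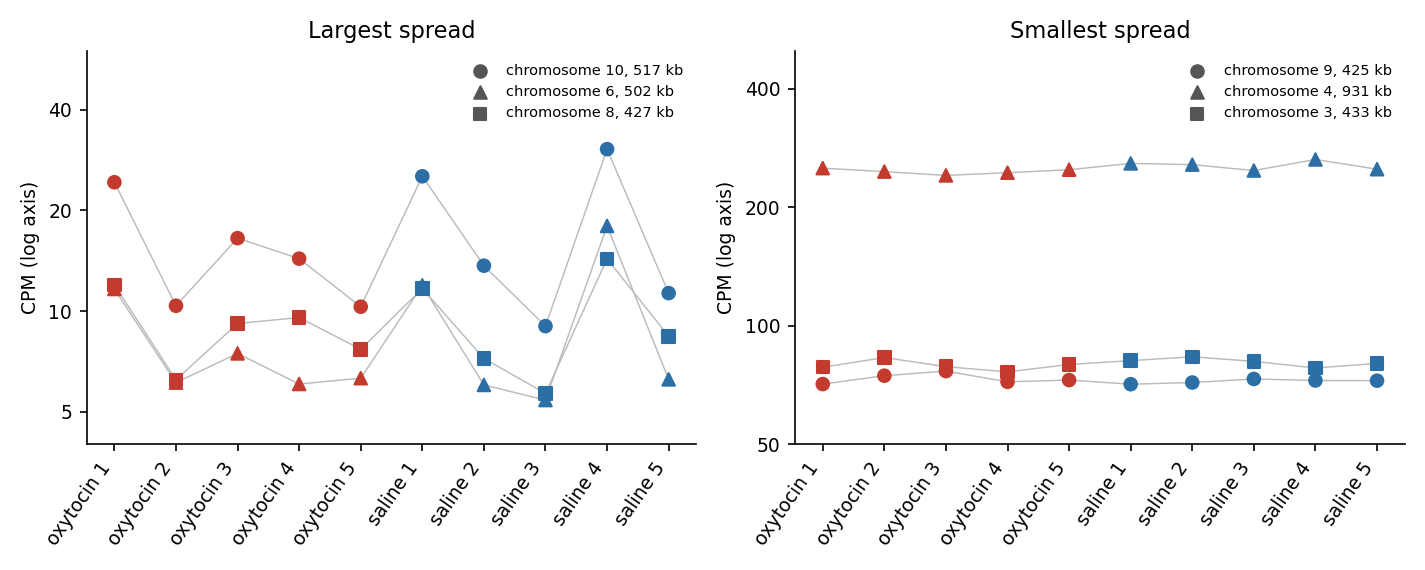
CPM in each of the 10 libraries (log axis; red oxytocin, blue saline) for the 3 very long genes with the largest within-group SD (left) and the 3 with the smallest (right) among those with a mean of at least 5 CPM. On the left, oxytocin replicate 1 and saline replicates 1 and 4 are the highest libraries for each gene; on the right, each gene is nearly level.

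These 3 libraries were the 3 highest for 17 of the 20 most variable very long genes with a mean of at least 5 CPM, an order noticed only after the values were seen. Over all 437 it held for 71 (16.2%), compared with 7.10% of other autosomal features, and the reverse order, the same 3 lowest, held for 36 (8.24%) against 3.41%. The 3 libraries were picked from genes that are among these 437, so the contrast with the other features is not independent of that choice. The first principal component of the very long genes carried 44.5% of their variance and gave its highest loadings to saline replicate 4 (0.52), saline replicate 1 (0.43) and oxytocin replicate 1 (0.41). In the other autosomal features the first component had its highest loadings in the same libraries (0.49, 0.41 and 0.46) but carried 27.9%. Restricted to features with a mean of at least 10 CPM, the figures were 53.5% over 349 very long genes and 35.9% over 9094 others. Oxytocin replicate 1 held 30404127 counts, saline replicate 1 held 19689446 and saline replicate 4 held 18700052, and the part of depth was not tested.

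At the other end, 3 genes were nearly constant. A minus-strand gene on chromosome 9 (110083540 to 110508540) read 71.1, 74.7, 76.7, 72.1 and 72.8 CPM in oxytocin libraries 1 to 5 and 71.1, 71.8, 73.3, 72.6 and 72.5 CPM in saline libraries 1 to 5. Its SD of 0.034 was no larger than the counting error of 0.037. The gene of 931132 bases on chromosome 4 read 252, 247, 241, 245 and 249 CPM after oxytocin and 259, 257, 248, 265 and 250 CPM after saline, an SD of 0.035. A gene on chromosome 3 (27296835 to 27729383) averaged 79.3 ± 2.4 and 80.9 ± 1.9 CPM (SD, n = 5 each, oxytocin first). In these 3 genes the groups overlapped.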

How the data were processed

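Per the submitters' processing notes, bcl2fastq, STAR 2.0.4b, Subread and featureCounts 1.45 were used with the build Rnor_5.0; their settings and the handling of strand are not given in the sources used here. The authors deposited 1 table per library, of 26404 features with raw counts, CPM (count over the library's summed count, per the file headers and within 4.18e-11) and RPKM (the deposited CPM per kilobase of listed exonic length). Span, exon blocks and overlaps were computed from the deposited coordinates. Very long genes were chosen by span alone, without 2 identifiers that are not reported here, and these genes and the gene lists were chosen with earlier results of these data known. None of the 26404 identifiers was paired with a symbol by the gene table at hand (GRCr8), so 23 lists of 417 gene symbols, markers included, were not used, no sequence is printed, and at most 2 identifiers higher and 2 lower are given.

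All features entered edgeR 4.0.16 (R 4.3.3): filterByExpr (14400 kept), TMM factors (0.983 to 1.02), glmQLFit and glmQLFTest of oxytocin against saline over 10 libraries without covariates, Benjamini-Hochberg adjustment over all tested features. Standard errors are the size of the log2 fold change over the square root of F. Values of single genes are deposited CPM; SDs, deviations and ranks of libraries use TMM-scaled log2 CPM with a prior count of 2. Features of similar mean CPM are the other autosomal features in the same bin of 0.5, with at least 20 per bin. Genes described singly are the 8 highest in RPKM, the 4 longest, the 4 smallest p in each direction, and the 3 largest and 3 smallest SD at a mean of at least 5 CPM. Alternatives were DESeq2 1.42.0, limma 3.58.1, other scalings, filters, bins and spans, and leaving out each library. The fit was tested on simulated data with known fold changes. Replicates are fetuses of separate dams, numbered in accession order.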

Additional observations from a re-analysis of the deposited data

Results flagged for a closer look

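The gap between an extreme library and its nearest neighbour within a group was examined 56 times, and 2 gaps were wider than the 95% limit of Dixon's test for 5 values (0.71), where chance gives about 1 in 20. For the gene of 965393 bases on chromosome 3 (30668625 to 31634018), saline replicate 2 stood at 2.67 log2 CPM while the other saline libraries lay between 3.43 and 3.73, a gap of 0.719 of the range. For the gene of 315593 bases on chromosome 12 (34713829 to 35029422), saline replicate 4 stood at 5.47 log2 CPM while the others lay between 4.65 and 4.88, a gap of 0.717 of the range.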

How the results depend on the processing

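Adjusted p stayed above 0.05 for the 116 of 465 very long genes to which DESeq2 gave one, and for each one tested under limma voom, RLE scaling, library size alone, the looser filter, spans of at least 500000 or 100000, and 10 fits without 1 library, a count of 0 throughout. At an unadjusted p under 0.05 the share was 0.92 to 7.55% without 1 library (2.90 to 5.81% of all tested features), 3.70% of 81 and 2.90% of 1655 with the other spans (3.57%), 1.83% with library size alone (4.58%), and 3.28 to 3.89% otherwise (2.46 to 3.74%). Their median log2 fold change ran from -0.0011 to 0.046 without each library, and its difference from features of similar mean CPM from 0.0040 to 0.051. The difference in within-group SD ran from 0.018 to 0.027, and that in share of counts from 0.014 to 0.080 percentage points. With a span of at least 100000 the differences from similar features were 0.013 for fold change and 0.014 for SD. Of 375 refits of the 25 genes described singly, 352 kept their direction, and none of the 360 with an adjusted p passed the threshold. The gene on chromosome 13 from 91029200 reversed with library size alone (-0.017), and that on chromosome 8 from 72463339 under limma voom (0.014). The other reversals came from leaving out a library. They concern small or variable differences, with log2 fold changes from -0.028 to 0.096 for chromosome 17 (76914823), -0.042 to 0.072 for chromosome 13 (91029200), -0.0024 to 0.082 for chromosome 8 (50460915), -0.046 to 0.038 for chromosome 13 (99533234), -0.077 to 0.15 for chromosome 3 (30668625), -0.45 to 0.071 for chromosome 10 (80633889), -0.53 to 0.063 for chromosome 6 (32580734), -0.19 to 0.15 for chromosome 8 (72463339) and -0.024 to 0.0084 for chromosome 3 (27296835). The cause of these reversals was not tested. Depth limits genes such as ENSRNOG00000019358, with 20 counts in its lowest library. No paired analysis was possible because replicate numbers follow accession order only.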

Other observations

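Chromosome X held 14 features that also span at least 250000 bases, of which 13 passed the filter. The median of all 14 was 19.7 CPM and 3.96 RPKM, where the 484 autosomal genes had a median of 28.9 CPM. After oxytocin 7 of the 13 were higher, with a median log2 fold change of 0.022 and no adjusted p below 0.9997 in edgeR's quasi-likelihood test. In saline replicate 2 these X-linked features deviated from their 10-library mean by a median of -0.11 on the log2 scale, beside -0.10 for the very long autosomal genes measured the same way. In saline replicate 4 the medians were -0.014 for X and 0.049 for the autosomes, so the high values of that library on the autosomes were not seen on X.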
